A study of Homo sapiens with 12 samples.

Results

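Lowering CD146 in cells labelled Hep3B brought their CD146 transcript to about the level found in HepG2 cells, and the RNA-seq libraries of these cells were compared here to see whether the rest of the transcriptome came closer to HepG2 as well. The comparison used 6 of the 12 libraries of the series, namely the 3 libraries labelled Hep3B with the CD146 shRNA and the 3 libraries of HepG2 with the pLVX vector. These groups were chosen from measured values, because both hold little transcript of MCAM, the gene that encodes CD146. CD146 shRNA replicates 1 and 2 entered the fit, and replicate 3 was kept as a check. The 3 libraries labelled Hep3B with the control shRNA served as the starting point.

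The control and CD146 hairpins were both of the Tet-on type, in which an inducer switches the hairpin on; the inducer, its dose and its duration are not in the labels. pLVX is the vector without a CD146 insert, and 3 further libraries with CD146 overexpression in HepG2 were left out. Hep3B and HepG2 are names of established human liver cancer lines, and Hep3B is used here as a label only. The cells labelled Hep3B were grown in DMEM, while HepG2 grew in MEM with added sodium pyruvate. Line, medium and vector system therefore changed together between the labelled Hep3B and HepG2 libraries, and their parts in any difference between them cannot be told apart. The labels name no clone, and do not say whether replicates came from separate cultures, so p-values measure only the spread between these libraries.

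CD146 is a cell adhesion molecule of the immunoglobulin superfamily that sits in the plasma membrane and is best known from endothelial cells, smooth muscle and melanoma. It takes part in contacts between cells and in contacts with laminins of the basement membrane, and it passes signals to the cytoskeleton. Differentiated hepatocytes are known for an epithelial junction programme, for the secretion of plasma proteins and apolipoproteins, and for cholesterol, bile acid, amino acid and urea metabolism. HepG2 keeps much of that programme, so that surface, adhesion and metabolic genes are natural places to look for movement toward or away from it.

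The label of the starting line did not match its transcripts. Of 13 hepatocyte markers, 13 averaged at least 10 CPM over the pLVX libraries and 0 did over the 6 libraries labelled Hep3B. CPM are read counts scaled to library size, with edgeR's TMM factors. Their summed level was 11.7 to 13.8 CPM in the control shRNA libraries and 70953 to 72070 CPM in pLVX. CD146 shRNA replicate 3 stood apart. For each labelled Hep3B library, genes were taken that averaged at least 100 CPM in pLVX and had at most 2 counts in every other labelled Hep3B library. Replicate 3 held 509 counts over 55 such genes, or 0.0884% of their pLVX level. The other 5 held 2 to 13 counts over their own sets of 20 to 22 genes, or 0.00389% to 0.0285%. The sets differ between libraries and were picked from these counts, so this is a description without a test. ALB, the albumin gene, gave 298 counts in that library and 0 to 5 in the other 5. Results for the apolipoprotein list and APOB are therefore given with and without that library. Counts for the other lists are from the fit without it. Total counts over the 12 libraries ran from 12772991 to 18129816.

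MCAM lies at chr11:119308529-119321521 on the minus strand of GRCh38 in the GENCODE annotation. Its level was 106, 105 and 110.0 CPM in control shRNA replicates 1, 2 and 3. In CD146 shRNA replicates 1, 2 and 3 it was 20.5, 22.6 and 24.96, and in pLVX replicates 1, 2 and 3 it was 25.3, 26.8 and 26.4. The CD146 shRNA libraries thus sat close under the pLVX libraries without overlapping them, and the control libraries were far above both. The match depends a little on scaling, since the log2 difference between pLVX and CD146 shRNA replicates 1 and 2 was 0.28 with TMM and -0.0031 with unscaled library totals. These values chose the groups, so they are a description without a test.

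The following 3 differences were then read for each of 19112 genes with enough counts, from a single edgeR quasi-likelihood fit with Benjamini-Hochberg adjustment over all of them (adjusted p under 0.05 counts as called). The starting difference is pLVX minus control shRNA, the change is CD146 shRNA minus control shRNA, and the remaining difference is pLVX minus CD146 shRNA. All are log2 differences, with standard errors, over 3 control, 2 CD146 shRNA and 3 pLVX libraries. A gene moved toward HepG2 if it had a called starting difference of at least 2-fold and a called change in the same direction, and away if the called change ran the other way. The change and the starting difference share the control libraries, so these counts carry no test.

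Over all genes the movement had no single direction. The starting difference was called for 15750 genes (82.4% of those tested) and was also at least 2-fold for 9184 (48.1%), of which 4199 were higher in pLVX (22.0%) and 4985 lower (26.1%). The change with the CD146 shRNA was called for 8915 genes (46.6%), 4458 higher (23.3%) and 4457 lower (23.3%). In bulk RNA a change in the share of cells that carry a transcript and a change in transcript per cell cannot be told apart. Control replicates 1 to 3 and CD146 shRNA replicates 1 and 2 did not overlap for 61.4% of tested genes, against which the order of libraries given for single genes is read. Among the 9184 genes, 1851 moved toward HepG2 (20.2%) and 2007 moved away (21.9%). Of the genes that began lower than in pLVX, 834 moved toward it (19.9%) and 516 away (12.3%), and of those that began higher 1017 moved toward it (20.4%) and 1491 away (29.9%). The small surplus of moves away turned around with unscaled library totals, which gave 2077 toward and 2007 away. With limma on log2(FPKM + 1) the counts were 1264 and 1050.

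Few genes arrived at the HepG2 level. Of the 9184 genes with a starting difference, 1851 moved toward HepG2. The remaining difference was no longer called for 193 of these 1851 (2.10% of the 9184). Another 24 of them went past the HepG2 level (0.261% of the 9184). MCAM is counted among these 24, but its level chose the groups, and its remaining difference was not called with unscaled totals (adjusted p = 0.97). The median gene that moved toward HepG2 closed 26.9% of its log2 starting difference. The remaining difference was called for 15706 genes (82.2%) and was also at least 2-fold for 9586 (50.2%), of which 4212 were higher in pLVX (22.0%) and 5374 lower (28.1%). Scaling shifted these lists, because unscaled totals moved the median starting difference of all genes by -0.32. They put 35.7% of called starting differences higher in pLVX in place of 47.4%, and 37.6% of called remaining differences in place of 47.6%.

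A distance that uses no control library in the value of an shRNA library gave a like picture. It is the median, over genes, of the absolute log2 difference between a library and the mean of the 3 pLVX libraries. Over all tested genes it was 0.920, 0.927 and 0.931 in control shRNA replicates 1, 2 and 3, and 0.987, 0.990 and 0.983 in CD146 shRNA replicates 1, 2 and 3. All CD146 shRNA libraries were slightly farther from HepG2 than all control libraries, by 0.0630 on average for replicates 1 and 2. The exact 2-sided permutation test gave p = 0.2 for 3 against 2 libraries and p = 0.1 for 3 against 3, which are the smallest values these numbers of libraries allow.

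Within the chosen classes of genes the libraries overlapped. Over 84 surface genes the distances were 1.89, 1.74 and 1.77 in the control libraries and 1.86, 1.88 and 1.95 with the CD146 shRNA. The 140 adhesion genes gave 1.67, 1.81 and 1.77 against 1.85, 1.77 and 1.75. For 377 metabolic genes the values were 1.27, 1.35 and 1.29 against 1.40, 1.35 and 1.34. No class stood nearer to HepG2 in every CD146 shRNA library, and the exact 2-sided permutation p-values for 3 against 2 libraries were 0.6, 0.6 and 0.4.

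**Figure D1:**
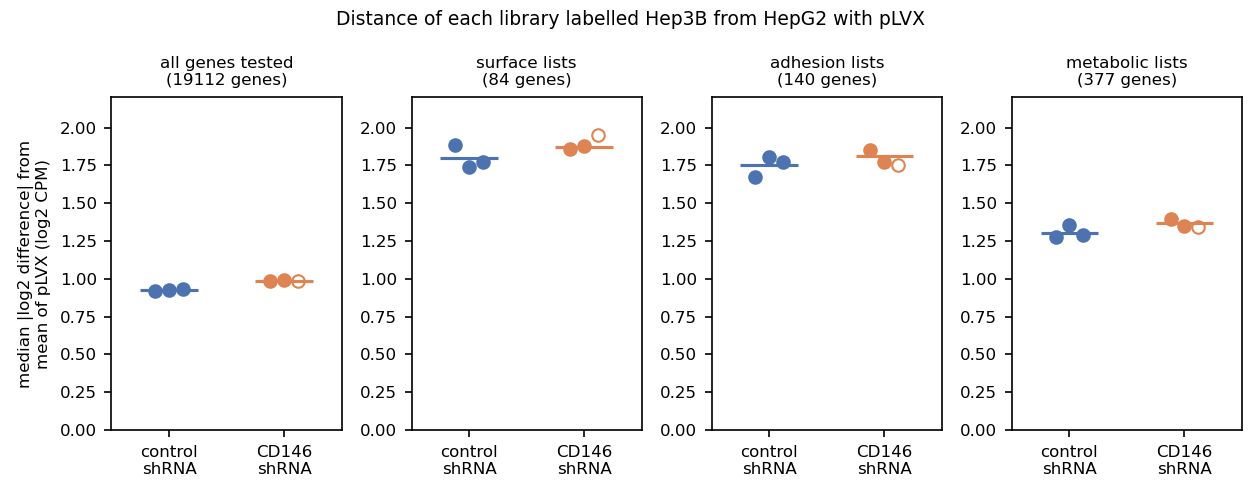
Distance of each library labelled Hep3B from HepG2, as the median absolute log2 CPM difference from the mean of the 3 pLVX libraries, for all genes tested and for 3 classes. Points are libraries in replicate order, lines are means of the filled points, and the open point is CD146 shRNA replicate 3; over all genes the CD146 shRNA libraries lie at 0.983 to 0.990 and the control libraries at 0.920 to 0.931, and in the 3 classes the groups overlap.

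The classes were built from 27 gene lists, 5 of surface, 6 of adhesion and 16 of metabolic genes. Of the 599 listed genes that were tested, 364 had a starting difference, and of these 91 moved toward HepG2 (25%) and 90 moved away (24.7%). The surface lists gave 17 toward and 18 away of 57, the adhesion lists 26 and 24 of 94, and the metabolic lists 49 and 48 of 214. These shares are read against 20.2% and 21.9% over all genes. Among listed genes a remaining difference of at least 2-fold was found for 377, against 364 at the start.

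**Figure D2:**
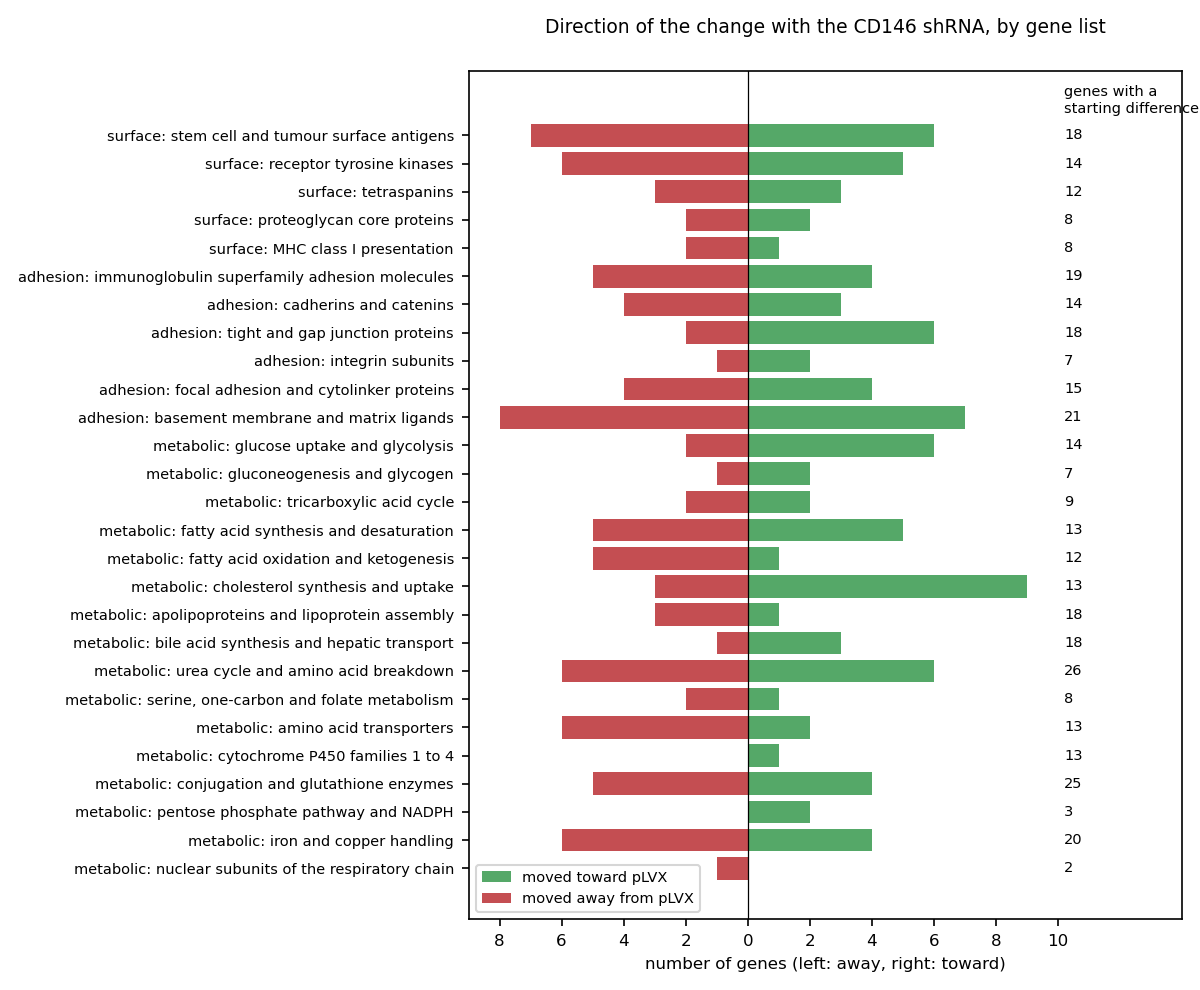
Number of genes in each list that moved toward HepG2 (bars to the right) or away from it (bars to the left) with the CD146 shRNA, with the number that had a starting difference at the right edge. Most lists hold both kinds; cholesterol synthesis and uptake has 9 toward and 3 away of 13, and fatty acid oxidation 1 toward and 5 away of 12.

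Cholesterol synthesis and uptake had the largest share of starting differences that moved toward HepG2 among the 27 lists (69.2%). Of its 24 genes, 21 rose with the CD146 shRNA and 2 fell (against 23.3% higher and 23.3% lower over all genes), with a median log2 change of 0.57 against 0.01 over all genes. A starting difference was present for 13, and 9 of them moved toward HepG2 and 3 away; unscaled totals left 9 with a starting difference, 7 toward and 2 away. The distance over the list was 1.04, 1.13 and 1.07 in the control libraries and 0.807, 0.824 and 0.731 in the CD146 shRNA libraries, which did not overlap. The distance also fell without overlap for the glycolysis, focal adhesion, bile acid and nuclear-encoded respiratory lists. It rose without overlap for receptor tyrosine kinases, MHC class I, the tricarboxylic acid cycle, fatty acid synthesis and oxidation, and iron and copper. The pathway builds cholesterol from acetyl-CoA through mevalonate and squalene, and its genes are known to be switched on together by SREBP2, the product of SREBF2, which binds sterol response elements in their promoters.

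Because these genes moved together, the RefSeq promoter windows (GRCh38.p14, 250 bases before to 50 after each start) were searched on both strands for TCACNCCA, the core letters of the sterol response element. Windows were present for 18 of the 24 genes. The core was found in windows of 3 of these genes. It was found in 1387 of all 35116 windows (3.95%), which counts windows and not genes, so the shares are of unlike units. A match describes the letters only, and its absence says nothing about binding. The stretches below are 100 bases of each window, on the strand of the gene, with the core in capitals; they lie at chr4:165327467-165327566 for MSMO1, chr12:109573553-109573652 for MVK and chr22:41832926-41833025 for SREBF2, all on the plus strand.
MSMO1: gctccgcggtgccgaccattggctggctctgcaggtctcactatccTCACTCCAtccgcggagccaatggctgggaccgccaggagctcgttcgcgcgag
MVK: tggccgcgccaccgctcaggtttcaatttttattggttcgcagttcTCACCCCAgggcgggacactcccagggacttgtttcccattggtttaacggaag
SREBF2: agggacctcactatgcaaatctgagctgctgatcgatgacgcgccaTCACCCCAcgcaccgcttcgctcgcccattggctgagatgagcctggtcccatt
The capitals end 149 bases before the start of MSMO1, 188 before that of MVK and 126 before that of SREBF2.

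SQLE, squalene epoxidase, is one of the rate-setting enzymes of the pathway. Its level was 142, 155 and 155 CPM in control shRNA replicates 1, 2 and 3, 267, 293 and 297 in the CD146 shRNA replicates and 443, 430.2 and 455 in pLVX. The 3 groups did not overlap, with the CD146 shRNA libraries between the other groups. The log2 change was 0.90 ± 0.05 (edgeR adjusted p = 1.1e-23), which closed 57.6% of the starting difference of 1.56. MSMO1, a sterol methyl oxidase and one of the promoters shown, went from 99.1, 100.1 and 104 to 198, 201 and 210.4 CPM beside 323, 338 and 345 in pLVX. It held the same order of groups, with a log2 change of 0.98 ± 0.05 (edgeR adjusted p = 1.9e-25) and 56.6% of the starting difference closed.

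HMGCS1, which makes HMG-CoA from acetyl-CoA at the start of the mevalonate route, was 163, 171 and 161 CPM in the control libraries, 291, 315 and 336 with the CD146 shRNA and 637, 659.7 and 657 in pLVX. Its CD146 shRNA libraries also lay between the other groups, with a log2 change of 0.88 ± 0.05 (edgeR adjusted p = 6.9e-24) and 44.2% of the starting difference closed. SREBF2 and MVK, whose promoters are shown, started within 2-fold of HepG2, so they were not counted as toward or away, and rose by 0.42 and 0.63 (log2; edgeR adjusted p = 1.4e-10 and 6.3e-10).

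DHCR7, the last reductase of one branch of the pathway, shows that a rise was not always an approach. Control libraries held 115, 118 and 115 CPM and pLVX held 118, 116 and 115, while the CD146 shRNA libraries held 178, 206 and 191. Its log2 change was 0.73 ± 0.05 (edgeR adjusted p = 1.5e-18), and the remaining difference of -0.72 followed a starting difference of 0.01 that was not called. LSS, which folds squalene epoxide into lanosterol, did likewise, with a log2 change of 0.58 and a remaining difference of -0.55.

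INSIG1, the endoplasmic reticulum protein that holds SREBPs back, moved away. The control libraries had 159, 155 and 150.5 CPM and the CD146 shRNA libraries 218, 239 and 226, whereas pLVX had 0, 0.209 and 0.0816, at or below the floor of 3 counts a library (0.155 to 0.268 CPM over the 9 libraries). The log2 change was 0.56 ± 0.05 (edgeR adjusted p = 2.5e-14). The shRNA line thus raised a gene of this pathway that was nearly absent from the HepG2 libraries.

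**Figure D3:**
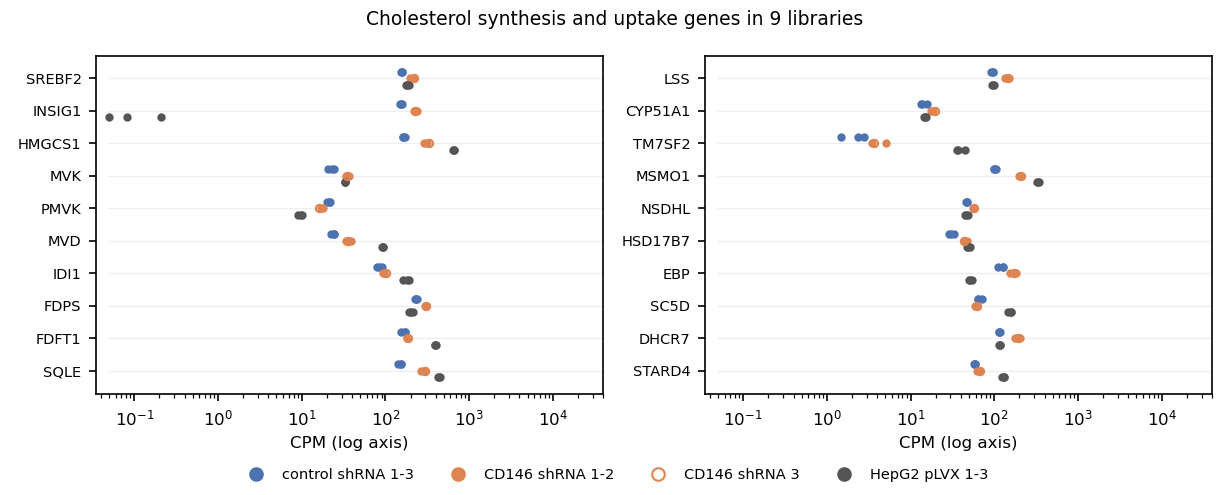
Level of 20 of the 24 cholesterol synthesis and uptake genes in CPM on a log axis, one point per library, with levels under 0.05 CPM drawn at 0.05. For SQLE, MSMO1 and HMGCS1 the CD146 shRNA points lie between the control and pLVX points; for DHCR7 and LSS they lie above both, and INSIG1 is near 0 in pLVX.

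In fatty acid synthesis and desaturation 11 of 20 tested genes rose and 4 fell (against 23.3% higher and 23.3% lower over all genes), with a median log2 change of 0.23. Relative to HepG2 this list split evenly, with 5 toward and 5 away of 13. SCD, the stearoyl-CoA desaturase, had a starting difference under 2-fold (0.87, log2) and rose from 1459.5, 1440.4 and 1507 to 1674, 1789 and 1786 CPM, beside 2724, 2645 and 2682 in pLVX. That was a log2 change of 0.24 ± 0.05 (edgeR adjusted p = 1.4e-05), and the 3 groups did not overlap. FASN, fatty acid synthase, showed no called change, at 416, 409 and 405 CPM in the control and 376, 423 and 385 CPM in the CD146 shRNA libraries (log2 change -0.04 ± 0.05; edgeR adjusted p = 0.54). ACSL4, which activates arachidonic acid, moved toward HepG2 by 0.30 of a starting difference of 3.93, and LPIN1, a phosphatidate phosphatase, moved away by 0.38.

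In fatty acid oxidation and ketogenesis 3 of 28 genes rose and 14 fell (against 23.3% higher and 23.3% lower over all genes), with 1 toward and 5 away of 12. Its median log2 change was -0.21, against 0.01 over all genes. ACSL5, an acyl-CoA synthetase, fell from 42.7, 40.7 and 38.2 to 23.6, 26.3 and 24.1 CPM while pLVX held 155, 148 and 143. ETFB, a subunit of the electron carrier that takes electrons from acyl-CoA dehydrogenases, fell from 41.4, 39.6 and 39.0 to 30.0, 32.3 and 31.9 CPM beside 258, 263 and 253. For both genes the CD146 shRNA libraries were the lowest of the 3 groups and the groups did not overlap (log2 changes -0.70 ± 0.07 and -0.36 ± 0.07; edgeR adjusted p = 2.4e-12 and 7.2e-06). PPARA, the nuclear receptor that drives this programme in liver, was the 1 gene that moved toward HepG2, from 19.6, 21.9 and 18.5 to 31.4, 28.7 and 29.6 CPM beside 106, 102 and 93.2 (log2 change 0.59 ± 0.08; edgeR adjusted p = 7.6e-09).

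Most of the nuclear-encoded respiratory genes began within 2-fold of HepG2. Among 29 of them 21 fell with the CD146 shRNA and 1 rose (against 23.3% higher and 23.3% lower over all genes), and only 2 had a starting difference, of which 1 moved away and the other showed no called change. The gene that moved away, UQCRC2 of complex III, had a log2 change of -0.34 ± 0.05 (edgeR adjusted p = 5e-08). Over these 29 genes the distance to HepG2 was 0.301, 0.341 and 0.266 in the control libraries. In CD146 shRNA replicates 1, 2 and 3 it was smaller, at 0.242, 0.204 and 0.181. In the tricarboxylic acid cycle list 15 of 24 fell (against 23.3% over all genes) and the other 9 had no called change. Its starting differences divided into 2 toward and 2 away with TMM, whereas with unscaled totals 5 moved toward HepG2 and no member moved away, so the relation to HepG2 depends on the scaling there. The members toward HepG2, IDH3A and OGDH, lost their call in DESeq2 (adjusted p = 0.1 and 0.11). They also lost it with no filter on low counts (edgeR adjusted p = 0.063 and 0.072). Without control shRNA replicate 3 the call was lost as well (edgeR adjusted p = 0.056 and 0.058). IDH3B and SUCLG2, subunits of isocitrate dehydrogenase and succinyl-CoA synthetase, moved away by -0.56 and -0.33 (log2).

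Glycolysis held more genes toward HepG2 than away, with 6 and 2 of 14, although 13 of its 31 tested genes fell and 6 rose (against 23.3% higher and 23.3% lower over all genes). SLC2A1, the glucose transporter GLUT1, rose from 89.9, 102 and 102 to 118, 135 and 135 CPM beside 279, 282 and 282 in pLVX, in non-overlapping groups. Its log2 change was 0.37 ± 0.06 (edgeR adjusted p = 1.1e-07), and 24.3% of the starting difference was closed. HK1, the first enzyme of glycolysis in most tissues, fell from 143, 142 and 142 to 101, 99.7 and 99.5 CPM, while pLVX held 0.179, 0.209 and 0.245. Its log2 change toward HepG2 was -0.50 ± 0.05 (edgeR adjusted p = 3.2e-12). The pLVX libraries held 2, 3 and 3 counts, at the limit that a floor of 3 counts a library sets, so the distance to HepG2 is not given as a fold.

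PDK4, the kinase that switches off pyruvate dehydrogenase in fasting, moved away. It stood at 421, 405 and 404 CPM in the control libraries, 1251, 1246 and 1256 with the CD146 shRNA and 0.537, 0.348 and 0.490 in pLVX. The CD146 shRNA libraries lay 3.04-fold above the controls by the fit, and the pLVX libraries held 6, 5 and 6 counts. The log2 change was 1.61 ± 0.04 (edgeR adjusted p = 1.3e-38).

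Amino acid metabolism split within its own list, with 6 genes toward and 6 away of 26 with a starting difference. HPD, the second enzyme of tyrosine breakdown, closed the largest part of its log2 gap among the named metabolic genes with a starting difference. Its level was 61.2, 59.6 and 55.5 CPM in the control libraries, 157, 164 and 162 with the CD146 shRNA and 231, 236 and 225 in pLVX. The groups did not overlap, the log2 change was 1.45 ± 0.05 (edgeR adjusted p = 3e-32), and 73.5% of the starting difference was closed.

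CPS1, the entry enzyme of the urea cycle, ran the opposite course. It was already higher in the starting line than in HepG2, at 1489.5, 1469.7 and 1526 CPM against 119, 120.4 and 120.1, and went up to 2702, 2846 and 2807 CPM. The log2 change was 0.89 ± 0.04 (edgeR adjusted p = 6.1e-26), and no libraries overlapped. CTH, cystathionine gamma-lyase, moved away likewise, from 28.4, 29.8 and 25.9 to 64.2, 60.6 and 59.0 CPM beside 9.75, 12.3 and 12.7 (log2 change 1.16 ± 0.07; edgeR adjusted p = 4e-21). ASS1, the next urea cycle enzyme but one, rose by 0.16 (edgeR adjusted p = 0.0049), a call that was lost without control shRNA replicate 3 (0.11; edgeR adjusted p = 0.065).

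Amino acid transporters gave 12 genes that rose and 6 that fell of 25 (against 23.3% higher and 23.3% lower over all genes), with 2 toward and 6 away of 13. SLC38A5, a glutamine and serine transporter, nearly vanished from the shRNA line. It stood at 10.6, 8.98 and 12.1 CPM in the control libraries and 0.361, 0.554 and 0.336 with the CD146 shRNA, against 63.3, 63.1 and 62.8 in pLVX. The gap to HepG2 therefore widened from 2.57 to 7.09 on the log2 scale, with a change of -4.53 ± 0.22 (edgeR adjusted p = 6.3e-26). SLC43A1, the leucine transporter LAT3, did the reverse, rising from 12.9, 14.04 and 11.8 to 35.9, 36.4 and 33.4 CPM beside 95.6, 94.1 and 86.5, which closed 52.4% of its starting difference (log2 change 1.49 ± 0.08; edgeR adjusted p = 1.1e-23).

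SLC7A5, the large neutral amino acid transporter LAT1, fell past HepG2 from a starting difference under 2-fold. The control libraries held 629, 665 and 672 CPM, the CD146 shRNA libraries 277, 311 and 291 and pLVX 382, 402 and 365. Control libraries were thus the highest and CD146 shRNA libraries the lowest, with a log2 change of -1.16 ± 0.05 (edgeR adjusted p = 1.8e-28); the remaining difference of 0.38 lost its call in limma on log2(FPKM + 1), at 0.10 (adjusted p = 0.11). SLC6A6, the taurine transporter, moved away by 0.97 (log2; edgeR adjusted p = 2.2e-27). In the serine and one-carbon list 10 of 21 genes fell and 2 rose (against 23.3% higher and 23.3% lower over all genes), and PHGDH, which opens serine synthesis, fell by 0.32 from a starting difference of -0.52.

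Iron and copper genes divided as well, with 4 toward and 6 away of 20, while 12 of 24 tested fell and 2 rose (against 23.3% higher and 23.3% lower over all genes). TFRC, the transferrin receptor, was 3402, 3524 and 3648 CPM in the control libraries, 2429, 2395 and 2456 with the CD146 shRNA and 701, 724 and 738 in pLVX. It approached HepG2 in non-overlapping groups by a log2 change of -0.55 ± 0.05 (edgeR adjusted p = 1.1e-15). MT2A, a metallothionein that binds zinc and copper, moved away, from 20.04, 20.5 and 18.6 to 7.63, 6.76 and 6.31 CPM beside 84.2, 101 and 81.8 (log2 change -1.45 ± 0.11; edgeR adjusted p = 3.4e-17). Metallothioneins are near-identical copies of one another, so reads could be split between them and its values are uncertain. TFR2, a liver iron sensor, also moved away (-0.68), and SLC31A1, the copper importer, moved toward HepG2 (0.66).

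Hepatocyte secretion and detoxification showed the fewest called changes relative to their starting differences. Of 13 hepatocyte markers 0 reached 10 CPM in the labelled Hep3B libraries, and at such levels a change is hard to call. Among apolipoproteins 14 of 18 genes with a starting difference had no called change (against 5326 of 9184 over all genes). Of the other apolipoprotein genes 1 moved toward HepG2 and 3 away. With CD146 shRNA replicate 3 added, the counts became 7 toward and 1 away. APOB, the scaffold of very low-density lipoprotein, was the gene that turned from away to toward. Its counts were 4, 6 and 6 in the control libraries and 1, 2 and 306 in CD146 shRNA replicates 1, 2 and 3, while pLVX held 21995, 21842 and 21938 CPM. In the labelled Hep3B libraries all values but that of CD146 shRNA replicate 3 were a few counts, and the log2 change of -1.86 (edgeR adjusted p = 0.03) turned into 4.24 with replicate 3 included (edgeR adjusted p = 0.00014). The call of the fall rests on these few counts. It was lost in DESeq2 (adjusted p = 0.077), with no filter on low counts (0.057), in limma (0.54), without control replicate 2 or 3 (0.088 and 0.061) and without CD146 shRNA replicate 1 or 2 (0.22 and 0.056). CD146 shRNA replicate 3 also carried the hepatocyte transcripts described above, and their part in this result was not tested.

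Cholesterol efflux transporters of the same list had called changes. ABCA1 fell from 5.79, 5.94 and 6.12 to 2.68, 2.94 and 2.95 CPM beside 235, 249.96 and 262 in pLVX, a move away (log2 change -1.08 ± 0.16; edgeR adjusted p = 3.4e-08). ABCG1 fell from 14.1, 13.1 and 14.9 to 6.596, 5.04 and 4.63 CPM and had 0 counts in each pLVX library, so it moved toward HepG2 (log2 change -1.27 ± 0.13; edgeR adjusted p = 3e-12). Both transporters thus fell, and lay on opposite sides of the count. Cytochrome P450 families 1 to 4 had 12 of 13 starting differences without a called change. Bile acid synthesis and transport had 14 of 18 (against 5326 of 9184 over all genes). In the latter list SLCO2B1, an organic anion uptake transporter, rose from 1.15, 1.22 and 0.937 to 5.46, 6.04 and 4.70 CPM beside 56.5, 52.1 and 52.5 (log2 change 2.39 ± 0.20; edgeR adjusted p = 3.6e-16). Conjugation and glutathione enzymes gave 4 toward and 5 away of 25. GCLC, the first enzyme of glutathione synthesis, moved away (-0.56, log2).

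**Figure D4:**
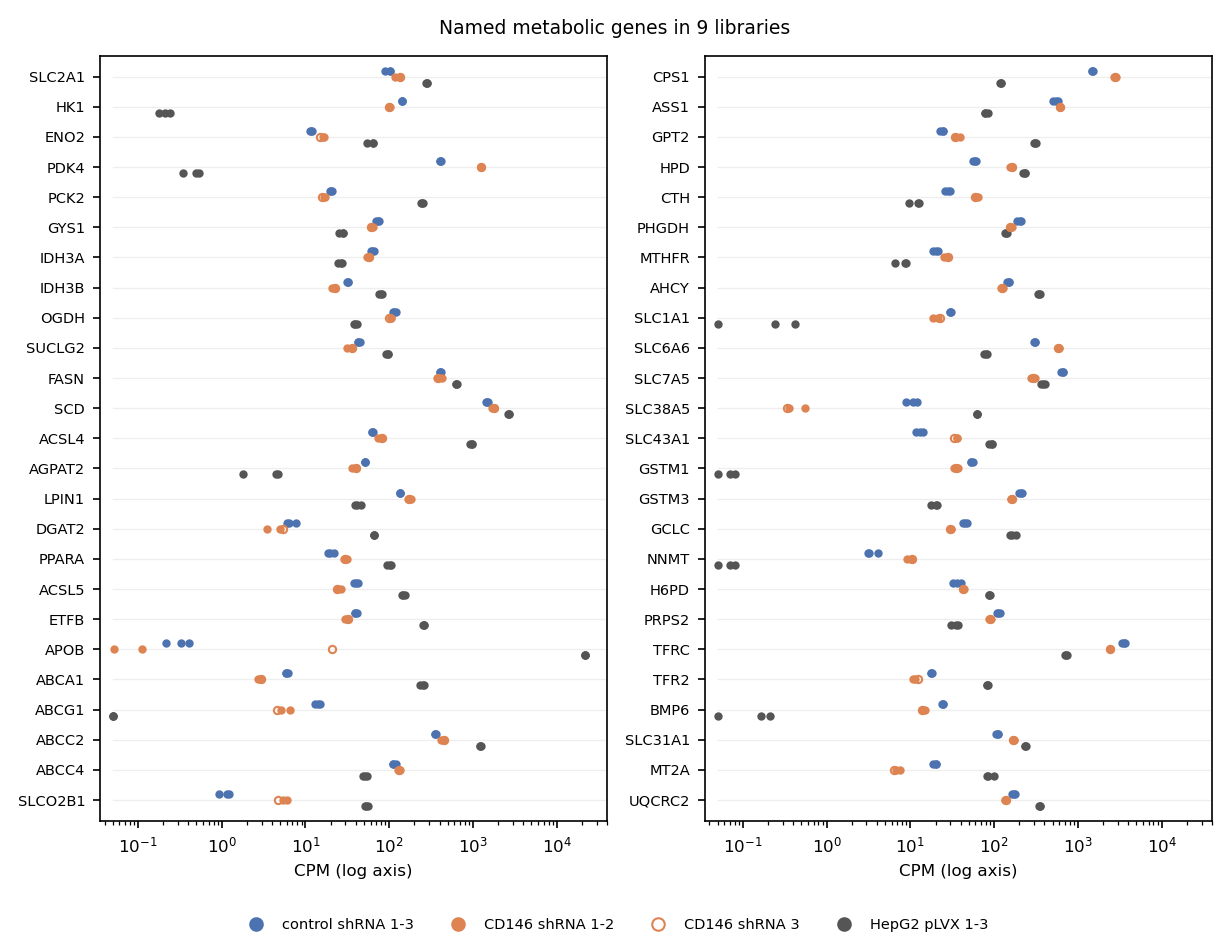
Level of the named metabolic genes outside the cholesterol list in CPM on a log axis, one point per library, with levels under 0.05 CPM drawn at 0.05. HPD and SLC43A1 show the CD146 shRNA points between the control and pLVX points, PDK4, CPS1 and SLC38A5 show them on the far side from pLVX, and APOB shows CD146 shRNA replicate 3 apart at 20.5 CPM.

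In the list of stem cell and tumour surface antigens 6 genes moved toward HepG2 and 7 away of 18. The 6 toward closed a median of 7.88% of their log2 starting difference and are not described in this paragraph. The genes described here are CD59, CD46 and CD44, which rose away from HepG2. CD59, which blocks the membrane attack complex, was 317, 333 and 334 CPM in the control libraries, 809, 821 and 840.4 with the CD146 shRNA and 143, 135 and 134 in pLVX. No libraries overlapped, and the starting gap of -1.26 became -2.57 on the log2 scale, a change of 1.31 ± 0.04 (edgeR adjusted p = 7.4e-34). CD46, another complement regulator, rose from 1267, 1311 and 1354 to 2631, 2586 and 2670.3 CPM beside 518, 543 and 546 (log2 change 0.99 ± 0.04; edgeR adjusted p = 7e-28). CD44, the hyaluronan receptor, rose from 479, 541 and 557 to 726, 759 and 777 CPM and was near absent from pLVX at 0.984, 1.32 and 1.31.

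EPCAM, an epithelial antigen often used to mark liver progenitors, showed no called change. It stood at 48.9, 58.1 and 55.1 CPM in the control libraries, 52.4, 56.3 and 53.4 with the CD146 shRNA and 177, 189 and 185 in pLVX. Control and CD146 shRNA libraries overlapped and the log2 change was 0.01 ± 0.06 (edgeR adjusted p = 0.93) beside a starting difference of 1.77.

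Receptor tyrosine kinases rose broadly, with 16 of 23 higher (against 23.3% over all genes) and 2 lower, and their median log2 change was 0.30. Since some started below HepG2 and others above, the list gave 5 toward and 6 away of 14. ERBB3 and FGFR4, a heregulin receptor and the hepatocyte receptor for FGF19, moved toward HepG2. ERBB3 went from 45.5, 40.0 and 40.6 to 72.2, 66.3 and 65.4 CPM beside 648, 648 and 644, and FGFR4 from 32.5, 24.4 and 28.0 to 45.8, 54.5 and 47.0 beside 198, 210.5 and 194. In both the CD146 shRNA libraries lay above all controls and far below pLVX, and 18.2% and 28.9% of the starting differences were closed (log2 changes 0.72 ± 0.06 and 0.82 ± 0.08; edgeR adjusted p = 7.8e-16 and 4e-14).

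EGFR, the receptor of epidermal growth factor, moved away instead. The control libraries held 692, 731 and 773 CPM, the CD146 shRNA libraries 1193, 1172 and 1163 and pLVX 40.2, 42.8 and 40.1. The log2 change of 0.69 ± 0.05 (edgeR adjusted p = 3.8e-20) widened a starting difference of -4.16. MET, the receptor of hepatocyte growth factor, started within 2-fold of HepG2 and rose away from it by 0.24 (edgeR adjusted p = 3.4e-05).

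Smaller surface families were balanced. Tetraspanins gave 3 toward and 3 away of 12, with CD82 falling from 10.21, 10.5 and 10.3 to 3.86, 3.05 and 3.62 CPM toward pLVX libraries with 2, 0 and 0 counts, and CD9 rising away by 0.44 (log2). Proteoglycans gave 2 and 2 of 8; AGRN, the heparan sulphate proteoglycan agrin, rose from 276, 287 and 282 to 465, 548 and 499.9 CPM beside 128, 129 and 122 in pLVX (log2 change 0.85 ± 0.05; edgeR adjusted p = 1.2e-22). In MHC class I presentation 6 of 15 genes rose (against 23.3% over all genes) and the other 9 had no called change, with 1 toward and 2 away of 8. B2M, the invariant light chain, rose away from HepG2 from 629, 650.2 and 651 to 822, 855 and 864 CPM beside 285, 298 and 288 (log2 change 0.38 ± 0.04; edgeR adjusted p = 8.6e-11). HLA-B rose by 0.78, with the caution that HLA genes are near-identical and highly variable between lines.

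Among adhesion molecules of the immunoglobulin superfamily, to which CD146 itself belongs, 4 moved toward HepG2 and 5 away of 19. CADM1, a cell adhesion molecule of epithelia, had the largest fall among the named genes of this list. Its level was 38.3, 42.3 and 43.6 CPM in the control libraries, 13.8, 13.6 and 13.1 with the CD146 shRNA and 269, 271 and 264 in pLVX. The gap to HepG2 widened from 2.70 to 4.29 (log2 change -1.59 ± 0.08; edgeR adjusted p = 5.3e-26), without overlap between libraries. L1CAM, a neural adhesion molecule found in many carcinomas, rose away from 307, 302 and 311 to 462, 518 and 495 CPM beside 5.82, 7.16 and 7.43 (log2 change 0.67 ± 0.05; edgeR adjusted p = 7.7e-19). F11R, the junctional adhesion molecule JAM-A, moved toward HepG2 by 0.45, but shares 36.6% of its exon bases with another gene, and the counting is not stated to use strand.

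Classical cadherins did not shift as a set. CDH1, E-cadherin of epithelial junctions, stood at 0.764, 1.22 and 0.441 CPM in the control libraries, 2.42, 3.77 and 2.75 with the CD146 shRNA and 101, 103 and 102 in pLVX. The CD146 shRNA libraries were all above the controls and a small fraction of the HepG2 level (log2 change 1.97 ± 0.26; edgeR adjusted p = 3.1e-09), and 28.0% of the log2 gap was closed. CDH2, N-cadherin, which hepatocytes carry beside E-cadherin, fell away from HepG2 from 28.0, 27.0 and 27.6 to 16.7, 16.3 and 14.1 CPM beside 264, 267 and 259.9 (log2 change -0.74 ± 0.08; edgeR adjusted p = 2.7e-12). The list had 3 toward and 4 away of 14.

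CDH5, the VE-cadherin of endothelial junctions, rose the most among the listed cadherins. It was 0.601, 0.675 and 0.826 CPM in the control libraries, 18.4, 19.6 and 18.1 with the CD146 shRNA and 0.0895, 0.139 and 0.245 in pLVX. The gene was low in the control libraries, at or below 3 counts in each pLVX library, and well above both in every CD146 shRNA library (log2 change 4.74 ± 0.18; edgeR adjusted p = 1.6e-31). The 10 endothelial markers include CDH5, and its own rise makes up most of the rise of their sum. They summed to 32.7 to 35.2 CPM in the control libraries, 55.2 to 58.0 with the CD146 shRNA and 8.90 to 12.1 in pLVX. Of these markers 5 had enough counts to be tested, and 2 averaged at least 10 CPM over the labelled Hep3B libraries. KDR had 0 counts in all labelled Hep3B libraries. The part of the other markers in the result was not tested.

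Tight and gap junction genes gave 6 toward and 2 away of 18, though unscaled totals left 4 and 2 of 16. CLDN1, a claudin of hepatocyte tight junctions, rose from 2.89, 2.63 and 3.69 to 5.57, 5.43 and 5.23 CPM beside 197, 207 and 196 in pLVX. The groups did not overlap, and 13.7% of the starting difference was closed (log2 change 0.83 ± 0.15; edgeR adjusted p = 7.8e-06). CGN, cingulin of the junction plaque, moved away, from 30.1, 25.5 and 28.3 to 48.2, 47.2 and 42.3 CPM beside 11.01, 9.60 and 11.3 (log2 change 0.77 ± 0.07; edgeR adjusted p = 2.2e-13). CLDN10 was the adhesion gene whose remaining difference was no longer called, at 0.177, 0.503 and 0.606 CPM on average in the control, CD146 shRNA and pLVX libraries, a level of few counts; it falls outside the rule for named genes and was picked after its values were seen.

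Of 28 basement membrane and matrix genes 20 rose (against 23.3% over all genes), 2 fell and 6 had no called change, with a median log2 change of 0.49. Relative to HepG2 they split, with 7 toward and 8 away of 21. CCN2, the matricellular protein also called CTGF, was 24.9, 31.3 and 29.9 CPM in the control libraries, 107, 119 and 125 with the CD146 shRNA and 303, 317 and 304 in pLVX. All CD146 shRNA libraries lay between the other groups, and 57.8% of the log2 gap was closed (log2 change 1.98 ± 0.06; edgeR adjusted p = 4.7e-35). VTN, vitronectin, which hepatocytes secrete into plasma, rose from 0.983, 0.473 and 0.826 to 6.75, 6.98 and 6.64 CPM beside 171, 183 and 169 (log2 change 3.12 ± 0.20; edgeR adjusted p = 9.4e-21); 13.6% of its exon bases are shared with another gene.

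NID2 and LAMA1 of this list moved away. NID2, nidogen 2, which links laminin to collagen IV, was 54.5, 58.4 and 57.5 CPM in the control libraries, 269, 287 and 273 with the CD146 shRNA and 1.16, 0.695 and 0.898 in pLVX. Every CD146 shRNA library was well above every control library, and HepG2 held a trace (log2 change 2.29 ± 0.05; edgeR adjusted p = 1.7e-42). NID2 shares 30.0% of its exon bases with RTRAF, so part of its counts is uncertain. LAMA1, the laminin alpha 1 chain, went from 20.04, 22.3 and 20.9 to 53.4, 58.3 and 61.5 CPM beside 0.537, 0.278 and 0.245 (log2 change 1.41 ± 0.08; edgeR adjusted p = 3.6e-24; 10.3% of exon bases shared). LAMC1, the laminin gamma 1 chain, was close to the HepG2 level at the start (0.15 with TMM and -0.18 with unscaled totals, log2) and rose by 0.46 to a remaining difference of -0.31 (edgeR adjusted p = 3e-08). The 9 fibroblast and stellate markers summed to 59.5 to 68.8 CPM in the control libraries, 94.3 to 117 with the CD146 shRNA and 52.0 to 55.6 in pLVX. Of these markers 1 averaged at least 10 CPM over the labelled Hep3B libraries, and 2 did over pLVX. The 12 trophoblast markers, with CGB3 and CGB5 at 0 in all labelled Hep3B libraries, summed to 376 to 409, 1467 to 1588 and 20.6 to 21.3 CPM. Only 6 of these 12 had enough counts to be tested, and 2 averaged at least 10 CPM over the labelled Hep3B libraries. The part of the fibroblast or trophoblast set in the matrix result was not tested.

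Integrins and their cytoplasmic partners moved in both directions. In the integrin list 2 genes moved toward HepG2 and 1 away of 7 with a starting difference. Of its 15 tested genes 5 rose and 4 fell (against 23.3% higher and 23.3% lower over all genes). ITGB1 and ITGA6 started within 2-fold of HepG2, so they were not counted as toward or away. ITGB1, the beta 1 chain shared by laminin and collagen receptors, rose from 564, 626 and 643 to 862, 876 and 889 CPM beside 416, 438 and 427, from a starting difference under 2-fold to a remaining difference of -1.03 on the log2 scale. ITGA6, its laminin-binding partner, fell from 163, 175 and 174 to 119.6, 127 and 124 CPM beside 230.5, 244 and 244. Both therefore went farther from HepG2, one upward and the other downward (log2 changes 0.51 ± 0.05 and -0.47 ± 0.05; edgeR adjusted p = 3.7e-14 and 1.4e-11). In the focal adhesion list 4 moved toward HepG2 and 4 away of 15. PARVA, alpha-parvin, which ties integrins to actin, fell toward HepG2 from 72.7, 75.02 and 74.1 to 32.5, 32.3 and 35.3 CPM beside 17.8, 17.5 and 16.2, closing 56.5% of the gap (log2 change -1.19 ± 0.07; edgeR adjusted p = 2.3e-23). FLNA, the actin crosslinker filamin A, moved away by 0.32 (edgeR adjusted p = 9.8e-08).

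**Figure D5:**
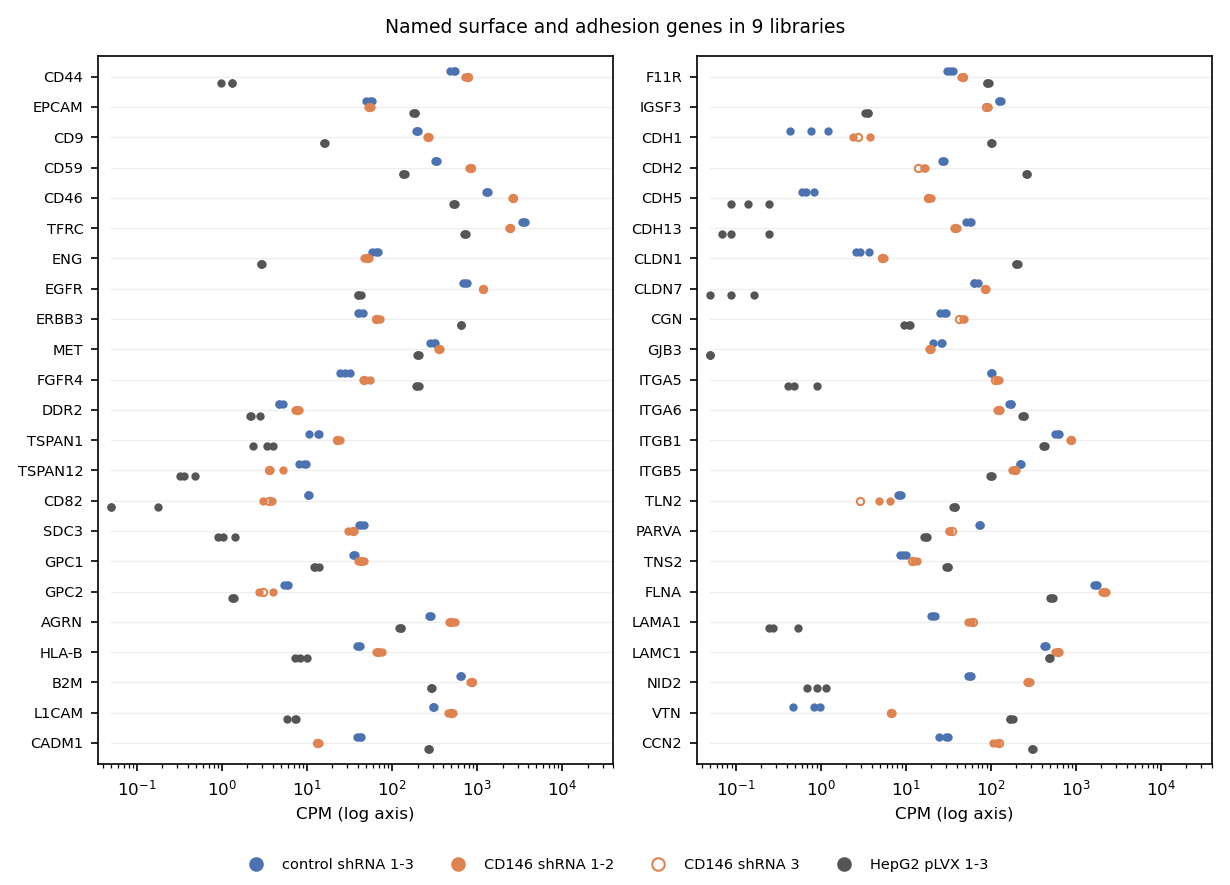
Level of the named surface and adhesion genes in CPM on a log axis, one point per library, with levels under 0.05 CPM drawn at 0.05. CCN2, PARVA and FGFR4 have their CD146 shRNA points between the control and pLVX points, CD59, CADM1, CDH5 and NID2 have them on the far side from pLVX, and the EPCAM points of the control and CD146 shRNA libraries overlap.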

How the data were processed

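RNA-seq of poly(A) RNA was read from the authors' deposited tables of raw read counts per gene and of FPKM values, with 61806 gene IDs. Per the submitters' processing notes, cutadapt 1.9.1, HISAT2 2.2.1 and HTSeq 0.6.1 were used; genome build, annotation and strand setting are not given in the sources used here. The counts were tested with edgeR 4.0.16 (R 4.3.3), with TMM scaling over 9 libraries, filterByExpr, a quasi-likelihood fit of 8 libraries and Benjamini-Hochberg adjustment over 19112 genes. The deposited FPKM were used with limma 3.58.1 as log2(FPKM + 1). DESeq2 1.42.0 was an alternative. Distances used log2 CPM with a prior count of 2.

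Members and gene lists were chosen with earlier results of these data known. Of 657 listed genes 656 matched. Named genes are MCAM, 22 anchor genes, up to 2 per list toward and away with the largest changes (at least 5 CPM, control and CD146 shRNA libraries not overlapping), and the 8 largest toward and away over all genes; others were picked after their values were seen. Results of some genes, 3 anchor genes among them, are not reported here. On simulated counts for the CD146 shRNA comparison (18725 genes, 200 changed) the fit recovered 98% of 2-fold and 83% of 1.5-fold changes and called 0.0216% of unchanged genes. The simulation gave all genes the same spread between libraries, and the 200 changed genes were drawn from those with ample counts. Its rates therefore do not extend to genes with few counts or to a change of many genes. Counts of libraries with the same replicate number did not deviate together (correlations from -0.111 to 0.0957), so the numbers were not taken as pairs. Promoter sequences are from RefSeq (GRCh38.p14).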

Additional observations from a re-analysis of the deposited data

Results flagged for a closer look

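A signal was found in data outside the main fit. CD146 shRNA replicate 3, kept as a check, held 509 counts of transcripts that are high in pLVX and near 0 in the other libraries labelled Hep3B, spread over 55 genes and equal to 0.0884% of their pLVX level. ALB reached 19.997 CPM there, from 298 counts. By the same rule the other 5 libraries labelled Hep3B held 2 to 13 counts over their own sets of 20 to 22 genes. That was 0.00389% to 0.0285% of the pLVX level of those genes. ALB had 0 to 5 counts in these 5 libraries. Of the 1851 genes that moved toward HepG2 without this library, 1748 did so when it was added, and of the 2007 that moved away 1924 did so; APOB is the gene that changed from away to toward.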

How the results depend on the processing

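The counts of genes toward and away were recomputed with other scalings, tests, filters, libraries and starting folds. Without single replicates the toward count ran from 1493 to 1856 and the away count from 1674 to 2030; without replicate 1 or 2 of the CD146 shRNA an arm keeps 1 library, assumed to vary like the others. Limma on log2(FPKM + 1) gave 1050 away. A starting difference of at least 4-fold gave 938 toward and 1182 away. Starting differences taken against 1 control library and changes against the other 2 gave 1578 to 1636 toward and 1781 to 1870 away. With the replicate number as a block, 8428 genes changed, 1725 toward and 1846 away; with sh 1 to 3 the counts were 1969 and 2123.

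The difference in distance over all genes stayed between 0.0225 and 0.0657 in all alternatives. Within classes the sign was not stable, and the cause was not tested. The surface difference was -0.0203 with a 5 CPM filter. The adhesion difference was -0.0407 with unscaled totals and -0.101 with a prior count of 0.5. The metabolic difference was -0.0402 with unscaled totals, -0.00304 with log2(FPKM + 1) and -0.00463 as a root mean square.

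Of 7119 recomputed values of named genes, 7057 kept their side of the threshold, 54 lost their call and 8 changed sign. The changes of sign were APOB (4.24 with CD146 shRNA 1 to 3 and 6.002 with replicate 3 alone), the remaining difference of COL1A2 (0.0800 with replicate 3 alone), and the starting difference of PSG9 (0.00 with disjoint control 3). With unscaled totals and with log2(FPKM + 1), the starting difference of LAMC1 became -0.18 and -0.17 and the remaining difference of MCAM became -0.0031 and -0.0025. Depth limits genes near 3 counts a library (0.155 to 0.268 CPM), where a fitted difference rests on few counts, as for APOB.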

Other observations

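Outside the surface, adhesion and metabolic lists, the largest moves away from HepG2 included genes that pLVX hardly expresses. ANO2, a calcium-activated chloride channel, was 13.9, 12.9 and 12.8 CPM in control shRNA replicates 1, 2 and 3, 228, 237 and 251 in the CD146 shRNA replicates and 0, 0.139 and 0.326 in pLVX (log2 change 4.14 ± 0.07; edgeR adjusted p = 1e-50). CCN5, a matricellular protein, rose from 5.13, 5.33 and 4.85 to 37.2, 40.2 and 40.3 CPM and had 0 counts in each pLVX library (log2 change 2.92 ± 0.10; edgeR adjusted p = 2.9e-32). TM4SF4, a transmembrane protein of liver and gut, rose from 3.82, 2.97 and 2.81 to 24.5, 25.7 and 27.2 CPM beside 0.268, 0.278 and 0.163 (log2 change 2.96 ± 0.13; edgeR adjusted p = 3.3e-29). PSG4 and PSG9, pregnancy-specific glycoproteins of the placenta, rose to 16.0, 17.96 and 14.7 and to 6.18, 7.93 and 8.72 CPM from under 1 CPM, with 0 counts in pLVX. The family is of near-identical copies, so its values are uncertain. The starting difference of PSG9 lost its call in DESeq2 (adjusted p = 0.13) and without control shRNA replicate 1 (edgeR adjusted p = 0.28). In limma on log2(FPKM + 1) both PSG4 and PSG9 lost it (adjusted p = 0.077 and 0.54), so their count as away is uncertain.

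The largest moves toward HepG2 were rises and losses. GDF15, a stress-induced cytokine, was 0.764, 1.35 and 1.16 CPM in the control libraries, 10.4, 8.92 and 8.66 with the CD146 shRNA and 69.1, 73.4 and 69.6 in pLVX (log2 change 3.16 ± 0.18; edgeR adjusted p = 2e-23). TNFRSF19, a receptor of the tumour necrosis factor family, rose from 1.15, 0.743 and 1.21 to 7.06, 8.15 and 8.92 CPM beside 208, 226 and 223. The cancer-testis genes MAGEA12 and CSAG1 fell from 9.39, 9.72 and 9.97 and from 7.64, 9.25 and 7.60 CPM to 0.155, 0.0554 and 0.0671 and to 0.0515, 0.0554 and 0.0671 CPM, with 0 counts in each pLVX library, and are members of multicopy families with uncertain values. ALPK2, an alpha-kinase, met the HepG2 level, at 9.89, 8.98 and 9.93 CPM with the CD146 shRNA and 10.6, 9.11 and 10.1 in pLVX, but shares 23.6% of its exon bases with another gene. COL1A2, a chain of collagen I, was 7.63, 8.31 and 1.27 CPM in CD146 shRNA replicates 1, 2 and 3 beside 1.52, 1.46 and 1.06 in pLVX, so replicate 3 stood apart and lay within the HepG2 range.

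By chromosome, the share of starting differences that moved toward HepG2 was 31.2% on chromosome 11, which holds MCAM, and 27.4% on chromosome 7, against 20.2% over all. Chromosome 11 also had 27.8% away, against 21.9%. On chromosome 7, 150 of 946 tested genes rose and 303 fell. On chromosome 21, 68 of 218 tested genes rose and 31 fell, with a median log2 change of 0.19. Over all genes 23.3% were higher and 23.3% lower. Chromosomes 7 and 21 were picked after their values were seen.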
